A study of Mus musculus with 32 samples.

Results

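The Maf and Nrf factors of brown adipose tissue were 9 genes, Maff, Mafg, Mafk, Maf, Nfe2l1, Nfe2l2, Bach1, Bach2 and Keap1, among 24523 gene names with a measured probe. Maff was chosen by its large fall in ChREBPβ KO mice, which had been seen in these arrays. The ChREBPβ KO value of Maff and the comparison of its 2 KO effects are therefore given as a description with no test. The other 8 genes were added as its partners, relatives and regulators, when results of both KO comparisons were already known. The 9 genes were carried by 15 probes, of which 12, covering 7 genes, passed the study's filter on dim spots and were in the deposited table of log2 values. Mafk and Bach2 had no probe that passed and are described apart.

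The study hybridised RNA of brown adipose tissue to 32 Agilent 1-colour arrays, 8 in each of 4 groups. Total ChREBP KO mice are Mlxipl-null and lack both isoforms of ChREBP, the transcription factor by which glucose controls lipid synthesis genes. ChREBPβ KO mice lack exon 1b of Mlxipl, which is specific to the β isoform, after CRISPR/Cas9 editing of embryos, and 2 lines of them were derived from each strain. Each KO group has a WT group of its own line, and the study's results describe the arrayed mice as C57BL6/J males. Every mouse, WT included, was fasted for 24 hours and then refed for 18 hours with 20% glucose in its water. The deletions are not confined to adipocytes. The labels give neither age nor the cells behind a signal, and in whole tissue fewer cells of a type cannot be told apart from less RNA per cell.

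Small Maf proteins (Maff, Mafg and Mafk) have a leucine zipper and a DNA-binding region but no activation domain of their own. They pair with one another, or with the cap'n'collar factors Nrf1 (Nfe2l1) and Nrf2 (Nfe2l2), which activate antioxidant, conjugation and proteasome genes, and with Bach1 and Bach2, which repress many of the same genes. Such pairs bind antioxidant response elements. Keap1 holds Nrf2 in the cytoplasm and hands it to a Cul3 ubiquitin ligase. Maf is a large Maf with an activation domain, best known in lens, lymphocytes and macrophages.

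Maff was the member with the large change, so the 250 bases before its RefSeq start sites (GRCm38.p6, 5′ to 3′ on the plus strand) are shown for the 2 sites that held a motif searched for. The upstream bases of Mafg, a small Maf that was not called in either KO, are shown beside them for comparison. Capitals mark CACGTG (E-box), TGACGTCA (cAMP response element) and TGACNNNGC (core of the antioxidant response element), each searched on both strands.
Maff start site 1, chr15:79346371-79346620, plus strand: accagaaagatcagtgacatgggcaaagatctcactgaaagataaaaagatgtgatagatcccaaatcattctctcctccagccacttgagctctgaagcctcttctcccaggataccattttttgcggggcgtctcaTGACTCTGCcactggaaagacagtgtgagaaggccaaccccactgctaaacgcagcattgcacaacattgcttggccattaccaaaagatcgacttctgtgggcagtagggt
Maff start site 2, chr15:79347270-79347519, plus strand: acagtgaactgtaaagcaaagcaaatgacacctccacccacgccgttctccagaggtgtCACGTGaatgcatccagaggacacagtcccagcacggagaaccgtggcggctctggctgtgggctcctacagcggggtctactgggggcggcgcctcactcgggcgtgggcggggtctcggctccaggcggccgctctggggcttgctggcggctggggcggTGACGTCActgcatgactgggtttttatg
Mafg start site, chr11:120633548-120633797, minus strand: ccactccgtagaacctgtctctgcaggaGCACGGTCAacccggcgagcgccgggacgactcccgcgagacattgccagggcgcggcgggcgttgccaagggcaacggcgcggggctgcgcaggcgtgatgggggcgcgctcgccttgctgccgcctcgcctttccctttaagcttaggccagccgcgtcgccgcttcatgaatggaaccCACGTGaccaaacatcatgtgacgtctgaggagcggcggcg

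Start site 2 of Maff had the E-box 191 bases and the cAMP response element 29 bases before the start. Start site 1 had an antioxidant response element core 112 bases before it, and the remaining Maff site had none of these motifs. Upstream of Mafg, an E-box stood 41 bases and an antioxidant response element core 222 bases before the start. Mafk also had an E-box, 208 bases before its start, and an antioxidant response element core at 13 bases. The other member promoters held an antioxidant response element core once, 240 bases before Nfe2l2, and no E-box or cAMP response element. Of 32851 promoter entries of the same length, 6.02% held the E-box, 1.55% the cAMP response element and 10.2% the antioxidant response element core. The AP-1 site TGAGTCA, held by 4.46% of entries, was in no member promoter. Entries were given for 8 of the 9 members, with Maf missing. These matches are letters in a window and not measured binding.

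Values are log2 intensities after quantile normalisation, and a change is the difference of group means on that scale. Between 64.4% and 71.1% of the spots of an array were well above background and 0 were saturated. The brightest probe of Mlxipl, the targeted gene, changed by -2.48 in total ChREBP KO mice (limma adjusted p = 2.02e-24), and by -1.50 when the β isoform alone was missing (adjusted p = 7.09e-17). Of its other 2 probes, A_55_P2728555 changed by -0.77 and -1.14 (adjusted p = 2.93e-07 and 2.47e-08), and A_55_P2045158 by 0.14 and -0.08, not called (adjusted p = 0.068 and 0.625). The mean of 8 brown adipocyte markers, Ucp1 and Cidea among them, lay between 15.3 and 16.2 on every array, although single markers moved. In total ChREBP KO 5 of the 8 were called higher and 1 lower, with changes of 2.19 for Dio2 and -3.16 for Elovl3, and in ChREBPβ KO 1 was called higher. Among all genes, 22.9% were called higher and 21.1% lower in total ChREBP KO, and 1.37% higher in ChREBPβ KO. What part the brown adipocyte markers had in the member values was not tested. Markers of other tissues were read too. The mean of 8 skeletal muscle markers ranged from 12.6 to 16.4 on the total-line arrays and from 5.64 to 12.2 on the ChREBPβ-line arrays, and that of 8 liver markers from 5.15 to 12.6 over all arrays. Neither list had a called gene in either KO comparison, while all 8 muscle markers were lower in the ChREBPβ-line WT group than in the total-line WT group. No array was left out. The study's methods describe ChREBPβ-deficient mice and WT littermates, with several litters in each protocol. The labels do not give the litter of an array, so p values measure the spread between these arrays.

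Maff, a small Maf, fell in total ChREBP KO mice. It was read by 1 probe, A_52_P608322, at chr15:79189442-79189501 (mm9, plus strand). In the total-line WT group its log2 intensity ran from 11.23 over a median of 11.59 to 11.80. In total ChREBP KO it ran from 8.64 over 9.19 to 9.71. All 8 KO arrays lay below the lowest WT array. The change was -2.37 ± 0.20 (SE, n = 8 against 8), a level 5.16-fold lower with a 95% interval of the log2 change from -2.77 to -1.96. The limma adjusted p was 1.92e-11, and the two-sided exact permutation p was 0.000155, the smallest that 8 arrays against 8 can give. Across all genes, the arrays of these 2 groups did not overlap for 16.6%. Maff held rank 71 from the lowest change of the 24523 genes.

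**Figure D1:**
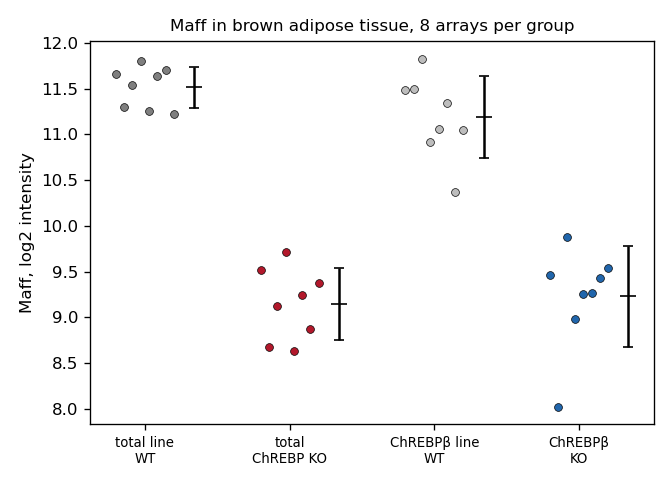
Log2 intensity of Maff on each of the 32 arrays by group, with each group's mean ± SD to the right of its points. The WT arrays of both lines lie between 10.37 and 11.83 and the KO arrays between 8.02 and 9.88.

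In the ChREBPβ line, the contrast by which it was chosen, Maff ran from 10.37 over 11.20 to 11.83 on the WT arrays and from 8.02 over 9.35 to 9.88 on the KO arrays. The groups did not overlap, as was so for 0.432% of all genes. The change was -1.96 ± 0.20 (SE), 3.90-fold lower, and was the rank 3 lowest change of all genes. By group mean the order was total-line WT (11.51 ± 0.22, SD), ChREBPβ-line WT (11.19 ± 0.45), ChREBPβ KO (9.23 ± 0.55) and total ChREBP KO (9.15 ± 0.39). The values of both WT groups overlapped, and so did those of both KO groups. The 2 falls differed by 0.40 ± 0.28 (SE).

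Arrays had been washed in 4 batches that each held all groups. Within them, the KO minus WT difference of Maff in the total line lay between -2.64 and -2.23, close to the pooled value. For the ChREBPβ line it lay between -2.46 and -1.89 in batches 1, 2 and 4. Batch 3 gave -0.96, from a single WT array, which was the lowest of its group at 10.37, and 3 KO arrays.

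Mafg, the other small Maf with a kept probe, was somewhat higher in both KO groups but was not called. Its brightest probe, A_66_P116632 at chr11:120489919-120489978 (mm9, minus strand), ran from 12.42 over 12.52 to 12.75 in total-line WT and from 12.64 over 12.77 to 12.97 in total ChREBP KO. ChREBPβ-line values ran from 12.03 over 12.18 to 12.89 in WT and from 12.23 over 12.43 to 13.05 in KO. KO and WT arrays overlapped in both lines. The differences were 0.24 ± 0.10 and 0.28 ± 0.10 (SE), with limma adjusted p = 0.0656 and 0.167. All 8 total ChREBP KO arrays lay above the WT mean, and the exact permutation p for that line was 0.00124. In the ChREBPβ line 7 of 8 KO arrays did, and the exact permutation p was 0.0664. In total ChREBP KO Mafg stayed uncalled in 38 of 45 alternative settings. With slide as a block the difference was 0.09 (adjusted p = 0.594), and with the total-line arrays fitted on their own it was called (adjusted p = 0.00286). Without the highest ChREBPβ-line WT array, replicate 5 at 12.89, the ChREBPβ KO difference was 0.37 and was called (adjusted p = 0.0113). The second Mafg probe, A_55_P2047748, differed by 0.10 ± 0.10 and 0.27 ± 0.10 (SE), and was called in neither KO (adjusted p = 0.449 and 0.18).

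Mafk, the small Maf left out by the filter, was well above background on 32 of 32 arrays, but its spot was found by the scanner software and passed every flag on only 19. Its probe A_55_P1953241 lies at chr5:140278221-140278280 (mm9), on the chromosome of Mlxipl and 4.66 Mb from the brightest Mlxipl probe. Without a filter, Mafk had a mean log2 intensity of 9.38 ± 0.16 (SD, n = 8) in total-line WT, 9.52 ± 0.11 in total ChREBP KO, 8.95 ± 0.19 in ChREBPβ-line WT and 9.12 ± 0.25 in ChREBPβ KO. The KO differences of 0.14 ± 0.09 and 0.17 ± 0.09 (SE) were not called (limma adjusted p = 0.274 and 0.524), nor were they among the probes well above background on all arrays alone (adjusted p = 0.221 and 0.4). The 3 small Mafs thus had a negative difference for Maff and positive ones, not called, for Mafg and Mafk in both lines.

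Maf, the large Maf, was not called in either KO by any of its 3 probes. At its brightest probe, A_51_P405167 at chr8:118227736-118227795 (mm9, minus strand), the total-line values ran from 9.54 over 9.72 to 10.05 in WT and from 9.26 over 9.60 to 9.79 in KO. The ChREBPβ line gave 8.03 over 8.57 to 8.95 in WT and 8.43 over 8.61 to 8.95 in KO. KO and WT overlapped in each line, with differences of -0.19 ± 0.11 and 0.07 ± 0.11 (SE) and limma adjusted p = 0.184 and 0.875. The lines themselves did not overlap. In the ChREBPβ-line WT group Maf was 2.31-fold lower than in the total-line WT group, a difference of -1.21 ± 0.11 (SE, limma adjusted p = 5.51e-10), with -1.73 and -0.91 at the other probes (adjusted p = 1.21e-08 and 2.18e-06). For all 3 probes the 8 arrays of each WT group stood apart from those of the other, which was so for 9.46% of genes at their brightest probe. The dimmest Maf probe was well above background on 6 of 8 ChREBPβ-line WT arrays.

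**Figure D2:**
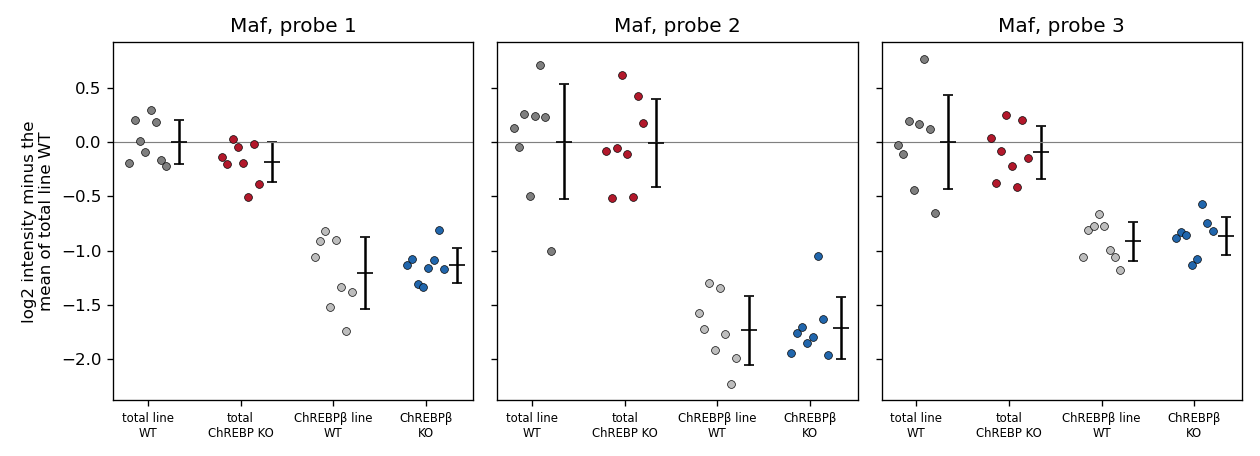
Log2 intensity of the 3 Maf probes on each array, minus the probe's mean in the total-line WT group, with group mean ± SD beside the points. KO and WT arrays of a line overlap, and the ChREBPβ-line WT arrays lie below the total-line WT arrays, with mean differences between -1.73 and -0.91.

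Markers of macrophages and skeletal muscle, and some of lymphocytes, differed between the WT groups as well. All 8 of 8 macrophage markers were lower in the ChREBPβ-line WT group, with a list mean of 9.27 ± 0.25 (SD) against 10.05 ± 0.33 and array ranges of 8.90 to 9.75 and 9.62 to 10.47. The muscle list mean was 8.87 ± 2.97 against 15.23 ± 1.19. What part macrophage or lymphocyte RNA had in the Maf difference was not tested. Muscle and liver list means were added as covariates after the data were seen. The Maf difference between the WT groups was then -0.78 and called (adjusted p = 0.000956), and that of Mafg was not called (adjusted p = 0.317). The muscle list mean ran from 12.63 to 16.44 in total-line WT and from 5.655 to 12.21 in ChREBPβ-line WT. Without overlap, this fit cannot separate line from muscle content, so nothing is read from either result. The macrophage and lymphocyte lists were not among the covariates. In total ChREBP KO the 8 macrophage markers were also all called lower, against 21.1% of all genes, with a median change of -0.81. Of the 7 lymphocyte markers, 1 was called higher and 0 lower in that comparison, against 22.9% and 21.1% of all genes. The brightest Maf probe changed there by -0.19 ± 0.11 (SE), and the others by -0.01 ± 0.19 and -0.10 ± 0.13. None was called (limma adjusted p = 0.184, 0.978 and 0.602). Whether Maf followed the macrophage markers in that comparison was not tested.

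Nfe2l1, which encodes Nrf1, was slightly lower in total ChREBP KO. Its brightest probe, A_51_P491720 at chr11:96678783-96678842 (mm9, minus strand), ran from 14.19 over 14.33 to 14.38 in total-line WT and from 13.92 over 14.09 to 14.34 in total ChREBP KO. The groups overlapped, and 7 of 8 KO arrays lay below the WT mean. The change of -0.21 ± 0.05 (SE) was called (limma adjusted p = 0.00169, two-sided exact permutation p = 0.00186). ChREBPβ-line values ran from 14.12 over 14.27 to 14.33 in WT and from 14.08 over 14.30 to 14.41 in KO, a difference of 0.05 ± 0.05 that was not called (adjusted p = 0.789). The KO effects of the lines differed by 0.26 ± 0.07 (limma adjusted p = 0.0111).

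The second Nfe2l1 probe is shown in full because its values differed from those of the brightest, together with the Keap1 probe, whose 60 bases cover 441 bases of genome and so cross an intron. Both are taken from the array design, on the minus strand of mm9, with no base singled out.
Nfe2l1, probe A_55_P2022277, chr11:96680710-96680769: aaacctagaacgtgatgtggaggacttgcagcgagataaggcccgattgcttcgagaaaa
Keap1, probe A_51_P438666, chr9:21035292-21035732: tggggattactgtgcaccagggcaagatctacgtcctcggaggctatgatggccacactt

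At that second probe Nfe2l1 was lower by 0.15 ± 0.06 (SE) in total ChREBP KO, with 7 of 8 arrays below the WT mean, and was not called (adjusted p = 0.0645). In ChREBPβ KO the difference was -0.08 ± 0.06, also not called (adjusted p = 0.654). The KO effects differed by 0.06 ± 0.09 (adjusted p = 0.682), against 0.26 at the brightest probe, so the difference between lines was called at 1 of the 2 probes. That call was also lost with slide as a block (0.26, adjusted p = 0.0795).

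Nfe2l2, which encodes Nrf2, was slightly higher in total ChREBP KO at its brightest probe, A_51_P411271 at chr2:75513771-75513830 (mm9, minus strand). It ran from 11.26 over 11.32 to 11.55 in total-line WT and from 11.44 over 11.61 to 11.77 in total ChREBP KO. The groups overlapped, although all 8 KO arrays lay above the WT mean. The rise of 0.22 ± 0.07 (SE) was called (limma adjusted p = 0.00596, two-sided exact permutation p = 0.00342). For the other line, WT ran from 11.35 over 11.47 to 11.66 and KO from 11.29 over 11.54 to 11.75, a difference of 0.08 ± 0.07 that was not called (adjusted p = 0.673). The other Nfe2l2 probe, A_55_P2720430, had differences of -0.09 ± 0.14 and -0.11 ± 0.14 (adjusted p = 0.653 and 0.831). The call was lost when the probes were averaged (0.07, adjusted p = 0.532) and with slide as a block (0.16, adjusted p = 0.147).

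**Figure D3:**
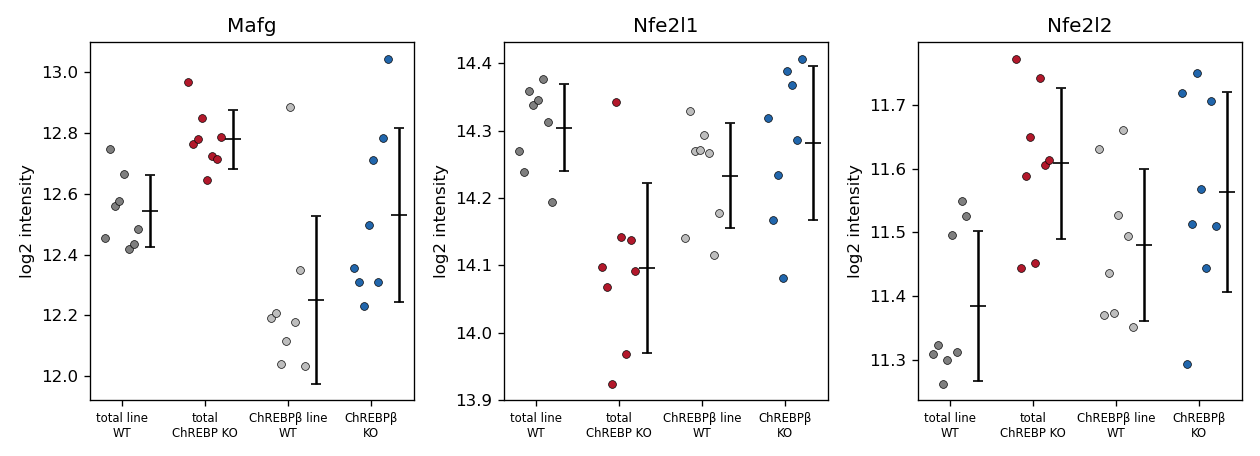
Log2 intensity of Mafg, Nfe2l1 and Nfe2l2 at their brightest probes on each array, with group mean ± SD beside the points and a separate scale in each panel. KO and WT arrays overlap in every panel, and total ChREBP KO differs from its WT group by 0.24, -0.21 and 0.22.

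Bach1, the repressor that competes with Nrf2 for small Mafs, was not called in either KO. Over the 4 groups its probe A_55_P2014337 at chr16:87733532-87733591 (mm9) had means between 8.90 and 9.21. The KO differences were 0.09 ± 0.07 and -0.06 ± 0.07 (SE, limma adjusted p = 0.32 and 0.807), with 95% intervals from -0.05 to 0.24 and from -0.21 to 0.08. Between the WT groups it differed by -0.16 ± 0.07, which was not called (adjusted p = 0.0826) but was with the processed signal (adjusted p = 0.0232) and with normexp background correction (adjusted p = 0.031). Bach2, a repressor best known in lymphocytes, had 2 probes and none that passed. The brighter, A_66_P114768, was well above background on 32 of 32 arrays and passed every flag on 16, with raw intensities from 24 to 55. Without a filter it differed by -0.21 ± 0.09 in total ChREBP KO and by 0.00 ± 0.09 in ChREBPβ KO (adjusted p = 0.0638 and 1). Among the probes well above background on all 32 arrays alone, the total ChREBP KO difference was -0.22 ± 0.08 and was called (adjusted p = 0.0342). The other Bach2 probe was well above background on 1 array. Keap1, the inhibitor of Nrf2, had means between 11.63 and 11.86 and KO differences of -0.10 ± 0.07 and -0.07 ± 0.07 (SE, adjusted p = 0.325 and 0.762), with 95% intervals from -0.25 to 0.06 and from -0.23 to 0.08.

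Counted by the brightest probe of a gene, 3 of the 7 measured members were called in total ChREBP KO (Maff and Nfe2l1 lower, Nfe2l2 higher), against 44.1% of all genes. Maff was past the same threshold in ChREBPβ KO, as were 2.7% of all genes, and this count follows from how Maff was chosen. Of the other 6 members, 0 were called by limma in ChREBPβ KO and 1, Mafg, had an unadjusted p under 0.05. The difference between the KO effects was called for 1 of the 6 members other than Maff (Nfe2l1) and 25.2% of genes. Between the WT groups 2 of 7 were called (Maf and Mafg, both lower in the ChREBPβ line) and 38.9% of genes. Mafg was lower there by 0.29 ± 0.10 (SE, adjusted p = 0.0237). Apart from Maff, the share of members called was not above that of all genes in the KO comparisons.

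**Figure D4:**
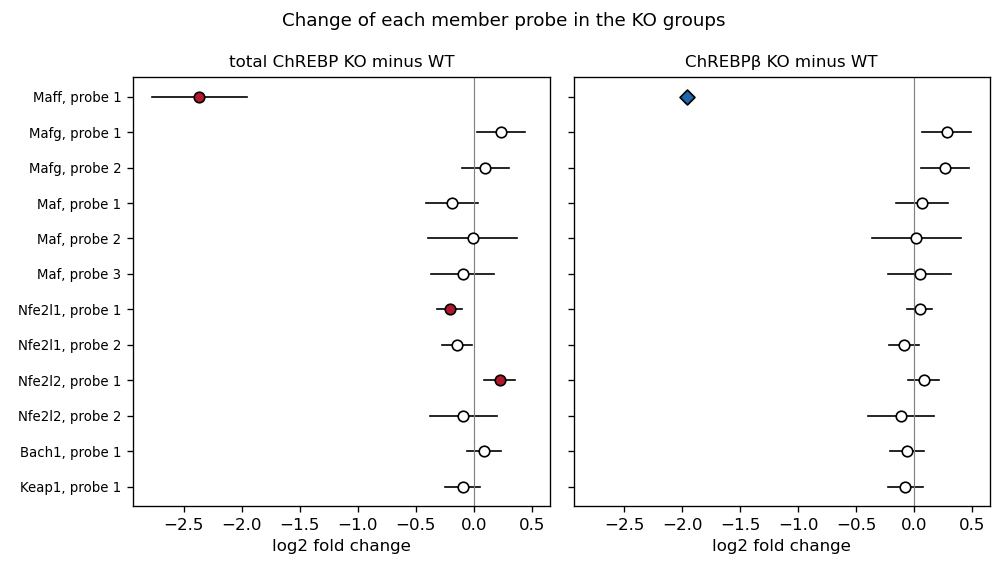
Log2 fold change of each kept member probe in both KO comparisons, with 95% intervals from limma and filled circles for probes called at an adjusted p under 0.05. Probe 1 is the brightest of a gene, and the Maff value in ChREBPβ KO is a diamond with no interval because Maff was chosen by it. Maff lies at -2.37 and -1.96 and every other probe between -0.21 and 0.28.

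Of the other Maf and cap'n'collar factors, Mafa, Nfe2 and Nfe2l3 had a kept probe. The list was shortened after its results had been seen, so nothing is read from its counts. In total ChREBP KO 0 of these 3 were called by limma and 0 had an unadjusted p under 0.05, while among all genes 22.9% were called higher and 21.1% lower. Their changes were -0.04 ± 0.06, -0.15 ± 0.10 and -0.08 ± 0.08 (SE). In ChREBPβ KO 0 of 3 were called as well (0 at an unadjusted p under 0.05), against 1.37% of genes called higher and 1.33% lower.

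Of 23 antioxidant and conjugation genes known as Nrf2 targets, 6 were called higher and 6 lower in total ChREBP KO. These counts are near the shares of all genes, 22.9% called higher and 21.1% lower. The list had a median change of -0.06, against 0.01 over all genes. Hmox1, which breaks down heme, was higher by 1.23 ± 0.20 (SE) and the carbonyl reductases Cbr3 and Cbr1 by 0.86 and 0.75. Ephx1, an epoxide hydrolase, was lower by 1.84 ± 0.12, Gclm, a subunit of the enzyme that starts glutathione synthesis, by 0.90, and the heme transporter Slc48a1 by 0.67. Nqo1, Gclc and Txnrd1, common readouts of Nrf2, were not called, with changes of 0.05 ± 0.13, 0.06 ± 0.08 and 0.06 ± 0.06. In ChREBPβ KO 1 of 23 was called, Cbr3, higher by 0.81 ± 0.22 (adjusted p = 0.0339), where 1.37% of all genes were called higher. An unadjusted p under 0.05 was seen for 8 of 23, with no share of all genes taken at that threshold. Nqo1, Gclc and Txnrd1 were not called there, with changes of 0.01 ± 0.13, -0.04 ± 0.08 and 0.17 ± 0.06. The median change of the list was 0.02. With slide as a block, over 15 slides, Cbr3 was higher by 1.02 and was not called (adjusted p = 0.0868), leaving 0 of 23.

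NADPH enzymes that are also Nrf2 targets were called lower in 5 of 6 cases in total ChREBP KO, against 21.1% of all genes. Me1 (malic enzyme) changed by -2.56 ± 0.12 (SE), while Pgd changed by -1.68 ± 0.09 and Tkt (transketolase) by -1.32 ± 0.04. In ChREBPβ KO, 2 of 6 were called lower, against 1.33% of all genes: Taldo1 (transaldolase) by 0.23 ± 0.04 and Tkt by 0.21 ± 0.04. An unadjusted p under 0.05 was seen for 4 of 6. With slide as a block neither Taldo1 nor Tkt was called (-0.19 and -0.21, adjusted p = 0.233 and 0.16). Tkt was also not called with median intensity or processed signal scaled to the 75th percentile (adjusted p = 0.157 and 0.182). Several of these enzymes are known ChREBP targets as well, so the list does not belong to the Nrf factors alone.

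Of 8 genes for the turnover of Nrf2, 3 were called higher and 3 lower in total ChREBP KO, against 22.9% and 21.1% of all genes. Cul3, the scaffold of the Keap1 ligase, was not called (-0.02 ± 0.05). The higher count fell to 1 with slide as a block (Cand1 and Syvn1 lost) and with median intensity scaled to the 75th percentile (Cand1 and Rbx1 lost). Gsk3b, a kinase that marks Nrf2 for degradation, fell by 0.50 ± 0.08 in total ChREBP KO and by 0.45 ± 0.08 in ChREBPβ KO (adjusted p = 6.24e-06 and 0.00125). It was the 1 gene of this list called in ChREBPβ KO, against 2.7% of all genes. An unadjusted p under 0.05 was seen there for 2 of the 8. The Gsk3b call in ChREBPβ KO was lost with slide as a block (-0.37, adjusted p = 0.101). Of 7 genes for the processing of Nrf1, Vcp was called lower by 0.16 and Syvn1 higher by 0.25 in total ChREBP KO. Among all genes, 21.1% were called lower and 22.9% higher. With slide as a block Syvn1 was not called (0.24, adjusted p = 0.102). The count called lower was 2 with that block, 3 with median intensity and 4 with processed signal. Ddi2, the protease that cuts Nrf1, and Ngly1, which removes its sugars, were not called (0.17 ± 0.08 and -0.08 ± 0.05). In ChREBPβ KO 0 of 7 were called, against 2.7% of all genes, and 1 had an unadjusted p under 0.05.

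Maff is induced fast by many stimuli, so 20 immediate early genes were read beside it. In total ChREBP KO, Jund and Myc were called higher by 1.12 and 1.15 and Nr4a2 lower by 0.68, and 17 were not called. Among all genes, 22.9% were called higher there and 21.1% lower. The Nr4a2 call was lost with slide as a block (-0.50, adjusted p = 0.206). Fos, Jun, Atf3 and Egr1 were among the 17 not called, with changes of -0.39 ± 0.90, 0.39 ± 0.31, 0.33 ± 0.45 and -0.47 ± 0.69 (SE). In ChREBPβ KO 0 of 20 were called by limma, against 1.37% of all genes called higher and 1.33% lower. An unadjusted p under 0.05 was seen for 7, with no share of all genes taken at that threshold. The median change of the list was 0.49, where Maff was lower by 1.96. Between the WT groups, 18 of 20 were called lower in the ChREBPβ line, as were 14.1% of genes, with a median of -1.35. Fos was lower there by 4.36 ± 0.90 (SE). Among the ChREBPβ-line WT arrays the SDs of the 20 genes ran from 0.23 (Cebpd) to 2.54 (Fos), and Maff had an SD of 0.45, within that range.

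**Figure D5:**
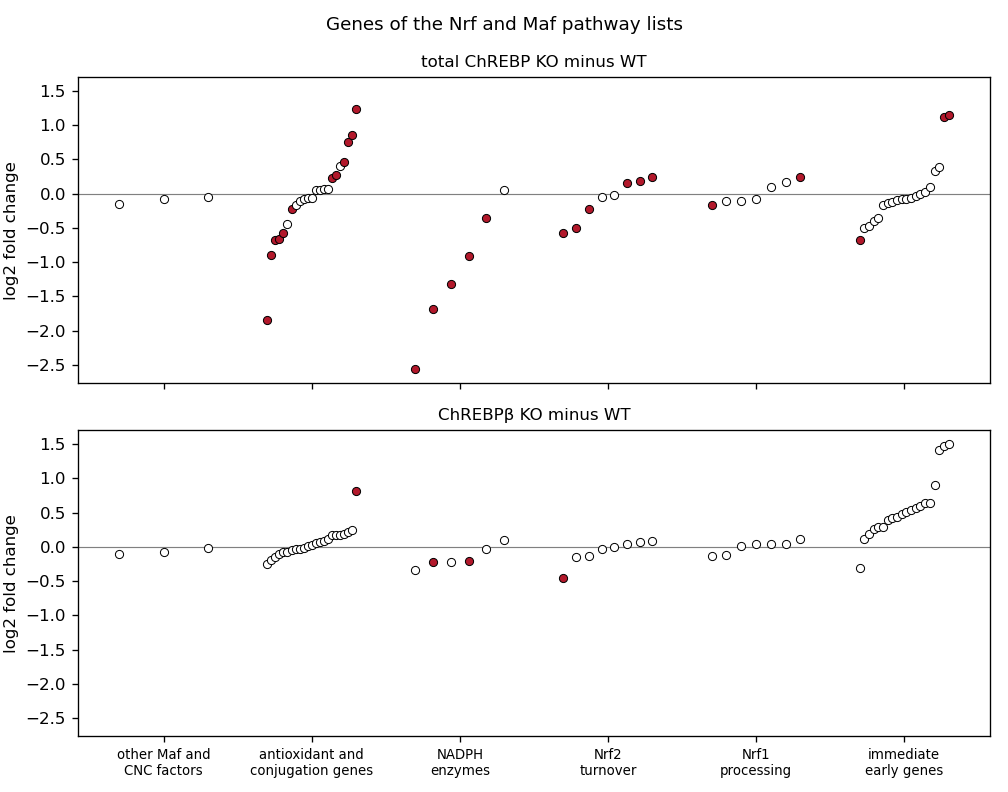
Log2 fold change of each measured gene of the 6 lists in total ChREBP KO (top) and ChREBPβ KO (bottom), sorted within a list, with filled points for genes called at an adjusted p under 0.05. Called genes of the antioxidant list lie on both sides of 0 in total ChREBP KO, and the 5 called NADPH enzymes lie below it.

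The genes whose levels followed Maff most closely over the 32 arrays were Vps37d (Pearson r = 0.93), Cables1 (0.91), Dmrtc1a (0.90), Oxtr (0.90) and Tekt1 (0.89). Their log2 changes lay between -2.71 and -0.90 in total ChREBP KO and between -2.39 and -0.53 in ChREBPβ KO, so the arrays of 4 groups shape these correlations. Vps37d is a neighbour of Mlxipl, with its probe 64.9 kb from the brightest Mlxipl probe. After each group's mean was taken off, the closest were Nmnat1 (0.66), Nudt4 (0.65), Flrt1 (0.64), Kdm8 (0.64) and Mrps10 (0.63), none of which was in the first set. Among the members, the deviations of Nfe2l1 correlated with those of Maff at 0.42, those of Nfe2l2 at 0.34, Maf at 0.24, Keap1 at 0.05, Mafg at 0.03 and Bach1 at -0.11. All these values come from the same 32 arrays and are given with no test.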

How the data were processed

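RNA of brown adipose tissue was measured on 32 Agilent arrays in 4 groups of 8, taken from the genotype in the labels. The deposited scanner files hold median spot intensity from Agilent Feature Extraction 10.10.1.1 (submitters' processing notes), not normalised between arrays. A second deposited file gives log2 values that the authors had filtered, quantile normalised and summarised over replicated probes.

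The study's filter was applied first. It takes spots other than controls whose found, positive and well-above-background flags were all set on 26 or more of the 32 arrays, or on 6 or more of the 8 arrays in a group. Intensities were log2 transformed and quantile normalised, and replicated probes were replaced by their median. Of 59305 spots 39985 were kept, giving 37306 probes. They differed from the deposited log2 values by 0.00298 on average. Arrays have no read depth, and their number limits the precision. Outlier flags (2123) were not used in the main values.

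limma 3.58.1 in R 4.3.3 fitted 4 group means over 32 arrays, with Benjamini-Hochberg adjustment over all probes and a call at an adjusted p under 0.05. Exact permutation tests were two-sided over 12870 splits. The fit was tested on simulated data. A gene stands for its brightest kept probe. Coordinates are mm9 from the files, and promoters are RefSeq GRCm38.p6 with no conversion between builds. The members, lists and markers were chosen with earlier results of these data known. A gene first placed in the list of other Maf and cap'n'collar factors is not reported here and was left out of its counts after the results had been seen. Genes named were all members, called list genes with the largest change (up to 3 in a direction), fixed first members of each list and the 5 genes closest to Maff. Alternatives were processed signal or median intensity scaled to the 75th percentile, normexp with an offset of 50, the deposited table, other filters, wash batch, slide or replicate number as a block, a contrast's own groups, array weights, mean of probes and leaving out each array. Muscle and liver list means as covariates were added after the data were seen.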

Additional observations from a re-analysis of the deposited data

Results flagged for a closer look

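In 3 of 48 groups of 8 arrays a member probe had an array far from the others, where chance gives about 1 in 20. Mafg was highest at 12.89 on ChREBPβ-line WT replicate 5, with the next array at 12.35. Maf probe A_55_P2633949 was highest at 8.21 on ChREBPβ KO replicate 6, with the next at 7.64. Bach1 was lowest at 8.82 on total ChREBP KO replicate 5, with the next at 9.18.

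The KO effects on Nfe2l1 differed between the lines by 0.26 at the brightest probe (limma adjusted p = 0.0111). The other Nfe2l1 probe gave 0.06.

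Mafk and the brighter Bach2 probe were each well above background on 32 of 32 arrays although neither passed the filter, since their spots were not found on enough arrays. In the fit without a filter, Mafk was lower by 0.43 ± 0.09 (SE) in the ChREBPβ-line WT group than in the total-line WT group (limma adjusted p = 0.000454).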

How the results depend on the processing

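Maff in total ChREBP KO kept its direction and its call in 45 of 45 alternatives (log2 change from -2.46 to -2.29), as did Nfe2l1 (-0.33 to -0.18). Nfe2l2 kept its call in 43 of 45 and Mafg, not called in the main setting, stayed so in 38 of 45. No called value changed sign. The members called in the difference between the KO effects fell from 1 to 0 with slide as a block and with the mean of probes. The members called between the WT groups fell from 2 to 1 with the muscle and liver list means as covariates, a fit that cannot separate line from muscle content. Leaving out 1 array at a time gave 3 to 4 members called in total ChREBP KO, 1 to 2 in ChREBPβ KO (2 without ChREBPβ-line WT replicate 5), 1 in the difference and 1 to 3 between the WT groups. There the count was 1 without ChREBPβ-line WT replicate 3 or 8 or total-line WT replicate 2, and Mafg was the member lost. The causes were not tested.

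With the replicate number as a block within each line, 4 members were called in total ChREBP KO (Mafg added, adjusted p = 0.0469), 1 in ChREBPβ KO and 1 in the difference. Deviations of same-numbered arrays correlated from -0.30 to 0.08 in the total line and from -0.20 to 0.53 in the ChREBPβ line. The correlation was over 0.1 in 0 of 8 pairs of the total line and 6 of 8 of the ChREBPβ line. Pairing was taken to need every pair above that value, so the main values have no block. The comparison of WT groups has no such block, since a number is nested in its line.

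Of the list counts, slide as a block took those in ChREBPβ KO from 2 to 0 for NADPH enzymes called lower, from 1 to 0 for Nrf2 targets called higher (Cbr3) and from 1 to 0 for Nrf2 turnover called lower (Gsk3b). In total ChREBP KO it took Nrf2 turnover called higher from 3 to 1, Nrf1 processing called higher from 1 to 0 and lower from 1 to 2, and immediate early genes called lower from 1 to 0. Median intensity scaled to the 75th percentile took NADPH enzymes called lower in ChREBPβ KO from 2 to 1 and, in total ChREBP KO, Nrf2 turnover called higher from 3 to 1, Nrf1 processing called lower from 1 to 3 and immediate early genes called lower from 1 to 2. With the processed signal the counts called lower went from 1 to 4 for Nrf1 processing and from 1 to 2 for immediate early genes in total ChREBP KO, and from 1 to 2 for Nrf2 turnover in ChREBPβ KO. Wash batch as a block took immediate early genes called lower in total ChREBP KO from 1 to 2 and those called higher in ChREBPβ KO from 0 to 1. The precision of 8 arrays in a group limits what was called, and the dim probes of Maf and Bach2 sit near background.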
